A study of Danio rerio with 12 samples.

Results

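The step from 75% epiboly (75%E) to tailbud (TB) was followed in B1 *sox* quadruple knockdown (QKD) zebrafish embryos and set against the same step in wild-type (wt) embryos. The members are the 8 arrays of both genotypes at both stages, 4 QKD and 4 wt, out of 12 in the series, and were chosen by stage and genotype labels alone. The other 4 arrays, of 30% epiboly, entered only the estimate of the spread. Each of the 6 groups has 2 arrays, each array measured RNA of 100 whole embryos of the TL strain, and 4 µg of total RNA was labelled per array. Wt embryos were not injected. QKD embryos received, at the 1-cell stage, 8 morpholino oligonucleotides (MOs) that block translation of *sox2*, *sox3*, *sox19a* and *sox19b*, with 2 MOs for each gene. No array of embryos injected with a control MO was used here, so injection and loss of B1 SOX cannot be told apart, and a pool of whole embryos cannot tell fewer cells of a type from less RNA per cell. The study reports delayed epiboly in QKD embryos, which were still in late epiboly when normal embryos had reached tailbud. The sample titles give the stage name alone, so a delay and a changed step cannot be told apart either.

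B1 SOX proteins are transcription factors of the SoxB1 group that are present throughout the early embryo and later in the neural plate, where they are known for maintaining neural progenitors. Between 75%E and TB a zebrafish embryo ends gastrulation. Its neural plate becomes divided into brain regions, the first neurons are specified, the Hox genes come on along the trunk, and many maternal and blastula-stage transcripts are cleared. The step in wt embryos therefore holds a set of normal rises and falls, and the question put to the data was which of them also took place in QKD embryos, which failed, and which gaps between the genotypes closed.

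The 8 MOs are shown because they define the QKD embryos. They are written 5′ to 3′ as the study lists them, in lower case, with every CAT in capitals, the reverse complement of the start codon ATG. Of the 8 MOs, 3 contain it.
sox2-MO2: gagaggctgctgaagttaccttagc
sox2-MO3: gaaagtctaccccaccagccgtaaa
sox3-MO1: taCATtcttaaaagtggtgccaagc
sox3-MO2: gaagtcagtcaaaagttcagagagc
sox19a-MO1: gtaCATggctgccaacagaagttag
sox19a-MO2: aaaacgagagcgagccgtctgtaac
sox19b-MO1: gtaCATCATgccacttctcgctttg
sox19b-MO2: acgagcgagcctaatcaggtcaaac
A match to CAT describes the letters of the MO and is not a test of where it binds. MOs of this kind leave the mRNA in place, so the array signal of a targeted gene does not measure the knockdown. At both stages all 4 targeted genes had higher signals in QKD than in wt embryos, and none had a called step in either genotype at its brightest probe set. The signal of *sox2* was 705 and 697 at 75%E and 879.9 and 877 at TB in wt embryos and 3328 and 3347 at 75%E and 3950.4 and 3805 at TB in QKD embryos. Its step was 0.33 in wt and 0.22 in QKD embryos on the log2 scale, with a difference of -0.11 (SE 0.20, adjusted p = 0.938). For *sox3*, *sox19a* and *sox19b* the difference was -0.080, 0.021 and -0.025. A dimmer probe set of *sox2* and one of *sox3* did have a called QKD step, of 0.71 and -0.49 (adjusted p = 0.00231 and 0.0379).

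Signals are the deposited linear intensities, whose median lay between 73.5 and 76.6 on the 12 arrays and whose lower quartile lay between 20.6 and 24.1. A signal under that quartile is dim and holds little information on further decreases. A step is TB minus 75%E in log2 units, so that 1 is a doubling of the signal, and the step difference is the QKD step minus the wt step. Each comes with the standard error (SE) of a limma fit over all 12 arrays and counts as called where p, adjusted by Benjamini-Hochberg over 15502 probe sets, was under 0.05. Probe sets are sets of short probes that together measure a transcript. Cell types of the whole embryo were represented by their markers in both genotypes, among them *krt4* of the surface epithelium (signal 6469 to 7983 over the 8 arrays), *tbx16* of paraxial mesoderm (927 to 2752) and *sox32* of endoderm (221 to 1518). The blood markers *gata1a* and *tal1* lay under the lower quartile on every one of the 8 arrays (6.26 to 13.7).

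The QKD step was large. It was called higher for 1874 probe sets (12.1%) and lower for 1575 (10.2%), against 2191 higher (14.1%) and 2122 lower (13.7%) for the wt step. Of 2534 probe sets called in both steps, 2516 went in the same direction. The step difference itself was called for 105 probe sets, 33 higher (0.213%) and 72 lower (0.464%), of which 76 carry a single gene symbol. Samples of one stage with the same replicate number deviated together. With that number as a block within each stage the step difference was called for 443 probe sets, 180 higher (1.16%) and 263 lower (1.7%). These held all 105. The block alters the SE and p of a step difference and by design leaves its size and sign unchanged. The direction of a step difference must be read with both steps, since -1 arises from a rise that failed as well as from a fall that only QKD embryos made.

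A normal rise or fall was defined as a called wt step of at least 1 in log2, which gave 535 rises (3.45%) and 359 falls (2.32%). Over these 894 probe sets the QKD step followed the wt step with a slope of 0.72 (Pearson r = 0.92 across probe sets, which are not independent replicates). The slope lay between 0.61 and 0.81 over 16 pairings of single arrays. The QKD and wt steps share no array. Same-numbered wt and QKD samples deviated together (r = 0.443 at 75%E and 0.488 at TB), so the 2 steps are not fully independent. How much this adds to the relation was not tested. The rises and falls were however chosen on the wt step, which favours wt steps that came out large by chance. The median wt step of the normal rises was 1.36 and the median QKD step of the same probe sets 1.03, and for the normal falls they were -1.31 and -1.03. With the choice turned around, the 361 called QKD rises of at least 1 had a median QKD step of 1.3 and a median wt step of 1.4, and the 265 QKD falls had medians of -1.29 in QKD and -1.31 in wt embryos. Neither choice gave a larger median step in QKD than in wt embryos.

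**Figure D1:**
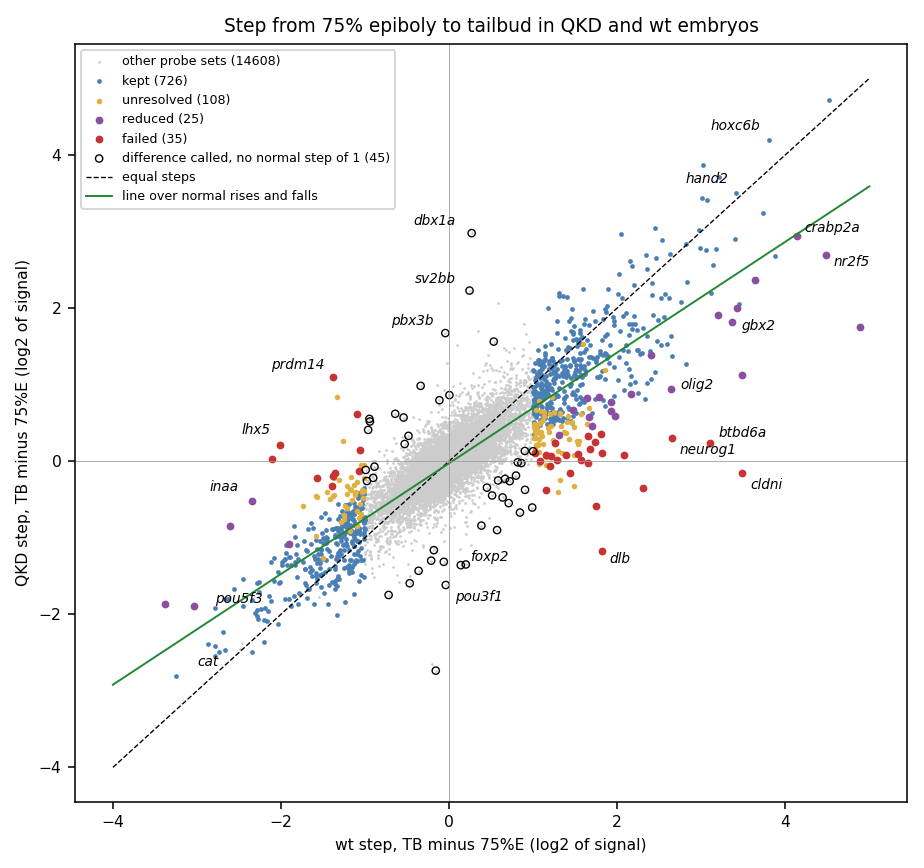
Each point is a probe set, with its wt step on the x axis and its QKD step on the y axis, both TB minus 75%E in log2 of signal. Normal rises and falls are coloured by what QKD embryos did (726 kept, 25 reduced, 35 failed, 108 unresolved), the dashed line marks equal steps, and the green line, of slope 0.72, is fitted over the coloured points. Most coloured points have steps of the same sign in both genotypes and QKD steps on the smaller side, while *neurog1*, *btbd6a* and *cldni* lie near a QKD step of 0 and *dbx1a*, *sv2bb* and *pbx3b* lie high near a wt step of 0.

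Most normal changes were also called in QKD embryos. A change was counted as kept where the QKD step was called the same way and the step difference was not called, which held for 424 of 535 rises (79.3%) and 302 of 359 falls (84.1%). It was reduced where the QKD step was called the same way but the step difference was called against it (20 rises and 5 falls). It failed where the QKD step was not called the same way and the step difference was called against the wt direction (25 rises and 10 falls). Neither held for 66 rises and 42 falls, which stay unresolved: their median QKD step was 0.39 for rises and -0.44 for falls, beside median wt steps of 1.16 and -1.17. No normal rise or fall was enlarged in QKD embryos, meaning that no step difference was called in the direction of the wt step. At an unadjusted p under 0.05, limma gave a difference against the wt direction for 217 rises (40.6%) and 113 falls (31.5%), and in its direction for 11 rises (2.06%) and 3 falls (0.836%). By 1 probe set per gene there were 312 normal rises (252 kept, 11 reduced, 15 failed, 34 unresolved) and 251 normal falls (203 kept, 5 reduced, 9 failed, 34 unresolved). The sign of the QKD step was that of the wt step for 522 of 535 rises and 352 of 359 falls. With the replicate block within stage, failed and reduced rises together numbered 135 in place of 45, failed and reduced falls 64 in place of 15, and enlarged rises 4. Kept rises then numbered 358 in place of 424 and kept falls 277 in place of 302. The step difference shares the wt arrays that chose the rises and falls, and these counts lean towards failure for that reason.

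Among the failed rises were genes of neurogenesis. *neurog1* encodes a proneural bHLH factor that starts the neuronal program. Its signal was 62.7 and 60.2 at 75%E and 408 and 362 at TB in wt embryos and 25.5 and 21.6 at 75%E and 36.8 and 22.6 at TB in QKD embryos. All 4 QKD arrays lay below all 4 wt arrays, and the QKD groups of both stages overlapped. The wt step was 2.65 and the QKD step 0.30 (adjusted p = 0.337), a step difference of -2.35 (SE 0.28, adjusted p = 0.00366). *btbd6a* encodes a BTB-domain protein that is known in zebrafish to promote late neurogenesis. It had signals of 21.4 and 27.1 at 75%E and 238 and 181 at TB in wt and 28 and 31 at 75%E and 35.1 and 34.6 at TB in QKD embryos, close together at 75%E and far apart at TB. Its steps were 3.11 in wt and 0.24 in QKD embryos, with a difference of -2.87 (SE 0.21, adjusted p = 0.00022). *lmo3*, which encodes a LIM-only transcriptional cofactor, had 29.1 and 29.7 at 75%E and 116 and 92.3 at TB in wt embryos and 16.7 and 16 at 75%E and 19.5 and 15.7 at TB in QKD embryos, all 4 QKD arrays lying under the lower quartile. Its step difference was -1.72 (SE 0.18, adjusted p = 0.00221). A second of its probe sets was called too (-1.33, adjusted p = 0.0137), and a last, dimmer one was not (-0.42, adjusted p = 0.385).

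Genes of regional transcription factors of the neural plate were among the failed rises as well. *sox21a*, a SoxB2 gene whose product acts as a repressor in neural tissue, had signals of 37.2 and 38.6 at 75%E and 97.6 and 77.8 at TB in wt embryos and 40.3 and 36.5 at 75%E and 34.6 and 39.1 at TB in QKD embryos. The QKD groups overlapped, and the step difference was -1.26 (SE 0.18, adjusted p = 0.0090). *zic1*, a zinc-finger gene of the anterior and dorsal neural plate, had 235 and 239 at 75%E and 482 and 525 at TB in wt and 35.1 and 43.1 at 75%E and 40.7 and 37.5 at TB in QKD embryos. It was thus already low in QKD embryos before the step and stayed there while wt embryos rose, which widened the gap from -2.61 to -3.68 (step difference -1.08, SE 0.17, adjusted p = 0.0161). *barhl2*, a homeobox gene of the diencephalon, had a step of 1.03 in wt and 0.11 in QKD embryos (step difference -0.92, adjusted p = 0.0265) at signals of 10.4 to 23.1. Smaller wt rises, under the size of 1, had no called QKD step beside them for *zic4*, *emx3*, *fgf8a* and the Notch-regulated repressor *her6*. For *fgf8a*, a ligand of the midbrain-hindbrain boundary, the signal was 319 and 296 at 75%E and 573 and 510.2 at TB in wt and 347 and 329 at 75%E and 326 and 343 at TB in QKD embryos (step difference -0.83, SE 0.14, adjusted p = 0.0245). The step differences of *her6*, *zic4* and *emx3* were -0.88, -1.28 and -0.77 (adjusted p = 0.0202, 0.0166 and 0.048), with *zic4* under the lower quartile on all 8 arrays.

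Outside the neural plate the failed rises included epidermal genes. *tp63* encodes the p63 factor of epidermal stem cells, and its signal was 127 and 112 at 75%E and 309.9 and 265 at TB in wt and 57.1 and 51.5 at 75%E and 72 and 56.6 at TB in QKD embryos. QKD embryos were lower at both stages and their groups overlapped, and the step difference was -1.03 (SE 0.19, adjusted p = 0.0356). *cldni*, a claudin gene of tight junctions, had 11 and 10.4 at 75%E and 226 and 63.8 at TB in wt and 10.6 and 11.5 at 75%E and 10.1 and 9.66 at TB in QKD embryos. The 2 wt arrays at TB were far apart, and the QKD arrays lay under the lower quartile throughout. The step difference of -3.64 (SE 0.57, adjusted p = 0.0147) therefore has a size that is not well measured. *arhgap29a*, *tagln3b*, *tmem47* and *spata13*, which were not placed in a tissue here, failed to rise too. Their wt steps were 1.81, 1.39, 1.28 and 1.43 and their QKD steps 0.36, 0.082, 0.0082 and -0.16. Over the 25 failed rises the median wt step was 1.65 and the median QKD step 0.079.

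The failed and reduced rises were sorted by the gaps between the genotypes. The step difference is the gap at TB minus the gap at 75%E, so this sorting describes them and is not a separate result. At 75%E the QKD signal was called higher than wt for 696 probe sets (4.49%) and lower for 605 (3.9%), and at TB for 488 (3.15%) and 498 (3.21%). In 37 of the 45 failed or reduced rises QKD embryos were called lower at TB. Among these 37, QKD embryos were already called lower at 75%E in 7 failed rises and 1 reduced rise. They were called higher at 75%E in 2 failed and 2 reduced rises. In the other 8 they were called higher at 75%E and not lower at TB. There the wt rise narrowed a gap that was already there or took it past 0. For *dlb*, among these 8, the gap went from 2.19 at 75%E to -0.81 at TB, the latter not called. A called QKD fall of 1.18 took part in this. In 4 of these 8 the rise failed and in 4 it was reduced, with a QKD rise of its own. *nat8l*, which encodes the N-acetylaspartate synthase of neurons, was a failed rise of this kind. Its signal was 22.9 and 38.6 at 75%E and 110.0 and 90.6 at TB in wt and 152 and 199 at 75%E and 109 and 122 at TB in QKD embryos, so that the TB groups overlapped and only the 75%E groups were apart (step difference -2.34, SE 0.33, adjusted p = 0.0080). *olig2*, a bHLH gene of motor neuron progenitors, had 23.3 and 33.5 at 75%E and 186 and 162 at TB in wt and 112 and 154 at 75%E and 282 and 224 at TB in QKD embryos. It rose in both genotypes, by 2.64 and 0.94 (step difference -1.7, SE 0.27, adjusted p = 0.0166). For *fsta*, which encodes the Activin and Bmp antagonist follistatin, the signal was 64 and 82.1 at 75%E and 709 and 630.5 at TB in wt and 178 and 167 at 75%E and 727 and 572 at TB in QKD embryos. The genotypes overlapped at TB, and the step difference was -1.3 (SE 0.21, adjusted p = 0.017, a dimmer probe set -0.33, adjusted p = 0.671).

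2 Delta ligand genes of the Notch pathway moved in opposite directions in the 2 genotypes. *dla* had signals of 267 and 314 at 75%E and 499 and 541 at TB in wt and 386 and 267 at 75%E and 203 and 200.2 at TB in QKD embryos. The genotypes overlapped at 75%E and were fully apart at TB, with a wt step of 0.84 (adjusted p = 0.00222), a QKD step of -0.67 (adjusted p = 0.0105) and a difference of -1.51 (SE 0.22, adjusted p = 0.0111). *dlb* had 15.6 and 24.8 at 75%E and 75.2 and 64 at TB in wt and 139 and 58.1 at 75%E and 44.1 and 35.5 at TB in QKD embryos. It was higher in QKD embryos at 75%E and lower on each TB array, where the gap was not called (adjusted p = 0.225), and its 2 QKD arrays at 75%E were far apart (step difference -3.0, SE 0.48, adjusted p = 0.0158). A dimmer *dlb* probe set was not called (-0.60, adjusted p = 0.158). In all, 17 of the 105 called step differences had called steps of opposite direction. Besides the Delta genes they included *myt1a*, a zinc-finger factor of neuronal differentiation (0.45 in wt and -0.35 in QKD embryos).

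Reduced rises kept their direction at a smaller size. *nr2f5*, an orphan nuclear receptor gene of the Coup-TF family, had the largest wt rise of a named gene in this class. Its signal was 34.6 and 59.4 at 75%E and 1138 and 904 at TB in wt and 26.5 and 27.6 at 75%E and 213 and 144 at TB in QKD embryos. All QKD arrays at TB lay well below both wt arrays, with steps of 4.48 in wt and 2.7 in QKD embryos (difference -1.79, SE 0.34, adjusted p = 0.0393). *crabp2a*, which encodes a retinoic acid binding protein, had 26.5 and 28.5 at 75%E and 543 and 432 at TB in wt and 22 and 22.4 at 75%E and 182 and 159.8 at TB in QKD embryos. The genotypes were close at 75%E and apart at TB, with a step difference of -1.2 (SE 0.19, adjusted p = 0.0166). For *gbx2*, a homeobox gene of the anterior hindbrain, the signal was 21.3 and 17.3 at 75%E and 245 and 160.4 at TB in wt and 27.7 and 31.7 at 75%E and 115 and 94.6 at TB in QKD embryos. QKD embryos were on the higher side before the step and on the lower side after it (step difference -1.55, SE 0.27, adjusted p = 0.0268). *cdh11*, a cadherin gene, had 21.2 and 27 at 75%E and 271 and 244 at TB in wt and 25.5 and 23.8 at 75%E and 114 and 85.2 at TB in QKD embryos (step difference -1.42, SE 0.22, adjusted p = 0.0137), and its second probe set was called as well (-1.01, adjusted p = 0.0166). *nkx2.9*, a target of Hedgehog signaling in the ventral neural tube, and *nkx2.7*, a homeobox gene of the heart field, rose by 0.65 and 0.88 in QKD embryos against 1.93 and 2.17 in wt embryos, and *nkx2.9* lay under the lower quartile on all 4 QKD arrays.

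The falls that failed were mostly of genes already low in QKD embryos at 75%E. Of the 15 failed or reduced falls, 12 were called lower in QKD embryos at 75%E and not called higher at TB. *six3a*, a homeobox gene of the forebrain and eye field, had 145 and 143 at 75%E and 66.7 and 71.9 at TB in wt and 33 and 30.3 at 75%E and 36.8 and 33.4 at TB in QKD embryos. Wt embryos fell, and QKD embryos stayed below all wt arrays (steps -1.06 and 0.15, difference 1.21, SE 0.15, adjusted p = 0.00445). *klf2b*, a Krüppel-like factor gene of the non-neural ectoderm, had 1192 and 1032 at 75%E and 326 and 428 at TB in wt and 202 and 267 at 75%E and 192 and 205 at TB in QKD embryos (step difference 1.34, SE 0.22, adjusted p = 0.017). *inaa*, which encodes the neuronal intermediate filament protein alpha-internexin, had 247 and 249 at 75%E and 51.1 and 46.6 at TB in wt and 25.2 and 24.7 at 75%E and 16.4 and 18.3 at TB in QKD embryos. Both genotypes fell, by 2.35 and 0.52, and the QKD arrays at TB lay under the lower quartile, where further decreases are poorly measured (step difference 1.82, SE 0.15, adjusted p = 0.000417). *hesx1*, a homeobox gene of the anterior neural plate, had 398 and 319 at 75%E and 144 and 152 at TB in wt and 22.4 and 15.7 at 75%E and 27.5 and 18.3 at TB in QKD embryos. Its wt fall of 1.27 met a QKD step of 0.26 at a signal near the lower quartile, and the step difference of 1.53 (SE 0.31) had adjusted p = 0.0552, and adjusted p = 0.010 with the replicate block.

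Some changes that were unresolved or kept in the fit without a block were called different with it. *otx2a*, a homeobox gene of the forebrain and midbrain, had 479 and 565 at 75%E and 165 and 185 at TB in wt and 299 and 354 at 75%E and 232 and 238 at TB in QKD embryos. It lay below wt at 75%E and above wt at TB, with a wt fall of 1.58 and a QKD step of -0.47 (adjusted p = 0.0701, step difference 1.11, SE 0.24, adjusted p = 0.0757, and 0.0146 with the replicate block). *pou3f2b*, a POU-domain gene of neural progenitors, had 14.1 and 11.6 at 75%E and 39.97 and 33.6 at TB in wt and 24.8 and 15.8 at 75%E and 24.6 and 23 at TB in QKD embryos, where the groups overlapped (step difference -1.25, adjusted p = 0.0648, and 0.00341 with the block). *egr2b*, the *krox20* gene of the hindbrain, and *nkx2.2b*, a gene of the ventral neural tube, rose by 1.39 and 1.49 in wt embryos beside QKD steps of 0.37 and -0.33. Their adjusted p for the step difference was 0.226 and 0.0552, and 0.0169 and 0.0177 with the block. *hoxb10a* of the posterior trunk and *sox4a*, a SoxC gene, rose by 2.68 and 2.05 in QKD and by 3.88 and 3.45 in wt embryos (adjusted p = 0.147 and 0.117, and 0.00161 and 0.00247 with the block). *hoxb10a* differed from wt by -1.94 at TB, while *sox4a* began higher at 75%E, by 1.63. Dimmer *hoxb10a* probe sets had step differences of 0.13 and -0.69, neither of them called in the fit without a block.

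In 2 failed falls QKD embryos were called lower at 75%E and called higher at TB. *lhx5*, a LIM-homeobox gene of the forebrain, had 562 and 629 at 75%E and 146 and 149 at TB in wt and 217 and 236 at 75%E and 302 and 226 at TB in QKD embryos. It was below wt at 75%E and above wt at TB on every array, with a wt fall of 2.01 beside a QKD step of 0.21 (adjusted p = 0.327), a step difference of 2.22 (SE 0.19, adjusted p = 0.000457). The other was *nap1l4a*, a nucleosome assembly gene, with 859.8 and 863 at 75%E and 415 and 401 at TB in wt and 638 and 593 at 75%E and 559.5 and 566 at TB in QKD embryos (step difference 0.95, SE 0.13, adjusted p = 0.00691). The reduced fall of *acsf2*, which encodes an acyl-CoA synthetase family member, was the 1 that opened a gap at TB only, with steps of -3.03 in wt and -1.89 in QKD embryos (difference 1.14, SE 0.20, adjusted p = 0.0275). *prdm14*, which encodes a PR-domain regulator known for pluripotency in mammals and for motor neurons in zebrafish, went the opposite way in QKD embryos. Its signal was 366 and 418 at 75%E and 139.9 and 162 at TB in wt and 67.4 and 95.5 at 75%E and 195 and 152 at TB in QKD embryos, and the TB groups overlapped. The steps were -1.38 in wt and 1.1 in QKD embryos (difference 2.48, SE 0.28, adjusted p = 0.00225).

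In the fit without a block no normal rise that lagged at 75%E was made up by a called, larger step. With the replicate block 4 normal rises were enlarged, among them that of *hoxc8a*, which lagged by 1.78 at 75%E (step difference 0.92, adjusted p = 0.0194 with the block). Among genes without a called wt step, some gaps narrowed through a QKD step. *dbx1a*, a homeobox gene of progenitors in the middle of the neural tube's dorsoventral axis, had 166 and 180.0 at 75%E and 241 and 180.0 at TB in wt and 18.5 and 12.5 at 75%E and 133 and 108 at TB in QKD embryos. The gap of -3.51 at 75%E shrank to -0.80 at TB, with a QKD step of 2.98 (adjusted p = 3.25e-06), a wt step of 0.27 (adjusted p = 0.338) and a difference of 2.71 (SE 0.27, adjusted p = 0.00151). *gli2a*, a transcription factor gene of Hedgehog signaling, and *septin9a*, a cytoskeletal gene, likewise rose in QKD embryos, from gaps of -0.78 and -0.61 at 75%E to 0.13 and 0.25 at TB that were not called (step differences 0.91 and 0.86, adjusted p = 0.0281 and 0.031). From the other side, *pou3f1*, a POU-domain gene of neural progenitors, had 30.6 and 24.8 at 75%E and 28.5 and 25.2 at TB in wt and 87.4 and 95.5 at 75%E and 30.5 and 29 at TB in QKD embryos. It fell in QKD embryos to a TB level that differed from wt by 0.15 (adjusted p = 0.764, step difference -1.58, SE 0.23, adjusted p = 0.0115). *foxp2*, a forkhead gene of neurons, had 58 and 69.1 at 75%E and 66.8 and 72.7 at TB in wt and 287 and 276 at 75%E and 113 and 106 at TB in QKD embryos, and it stayed higher than wt at TB on every array (step difference -1.5, SE 0.16, adjusted p = 0.00221). *lad1*, *junba* and *pou2f1b* fell in QKD embryos from a higher level by 0.84, 1.3 and 1.16, with *junba* under the lower quartile at TB, and their gaps at TB of 0.17, -0.050 and 0.32 were not called. *lad1* also rose in wt embryos, by 0.38 (adjusted p = 0.0211).

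Other genes rose in QKD embryos away from wt. The signal of *sv2bb*, which encodes a synaptic vesicle protein, was 23.7 and 21.4 at 75%E and 25.7 and 27.6 at TB in wt and 22.2 and 22.7 at 75%E and 128 and 86.5 at TB in QKD embryos. *pbx3b*, a Pbx homeobox gene, had 14.1 and 12.5 at 75%E and 12.8 and 13 at TB in wt and 18 and 24.3 at 75%E and 70.4 and 63.2 at TB in QKD embryos. For both, the 2 QKD arrays at TB stood alone above all other arrays, with step differences of 1.99 (SE 0.22, adjusted p = 0.00225) and 1.72 (SE 0.19, adjusted p = 0.00225). *tmem108* rose by 1.56 in QKD and by 0.53 in wt embryos (step difference 1.03, adjusted p = 0.0208). In all, 6 probe sets rose and 8 fell with a called QKD step and step difference and no called wt step.

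**Figure D2:**
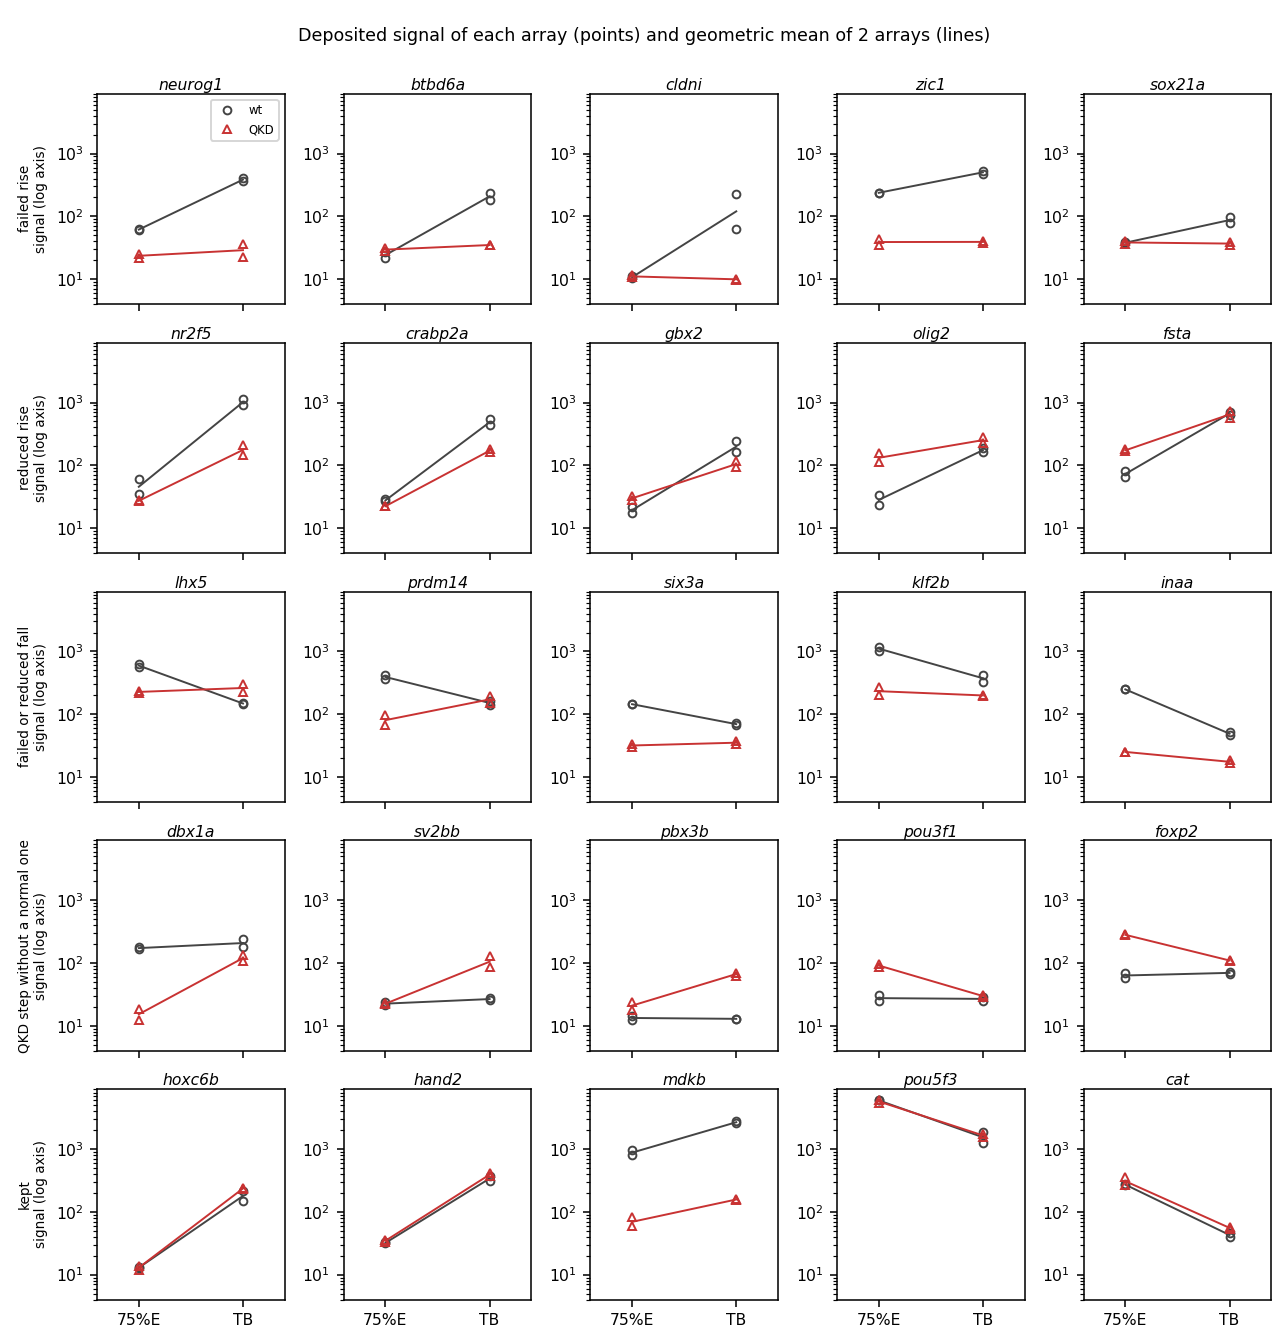
Deposited signal (log axis) of 25 genes at 75%E and TB, with a circle for each wt array, a triangle for each QKD array and lines through the geometric mean of the 2 arrays of a group. Wt lines climb away from flat QKD lines for the failed rises, QKD lines start low for the failed falls, and lines run together or in parallel for the kept genes.

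Over all probe sets, 237 of the 605 called lower at 75%E were called lower at TB too, and 234 of the 696 called higher were called higher at TB. A called step difference narrowed 25 and 27 of these gaps and widened 9 and 1. Among the 25 lower ones QKD embryos rose in 12 and wt embryos fell in 21, and among the 27 higher ones QKD embryos fell in 15 and wt embryos rose in 18, with some probe sets in both counts. Of the 498 gaps called lower and the 488 called higher at TB, 255 and 251 were not called at 75%E. Gaps at both stages and the step difference come from the same 8 arrays and are not independent of each other. Choosing gaps at 75%E favours those that came out large there by chance, and so favours later narrowing.

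**Figure D3:**
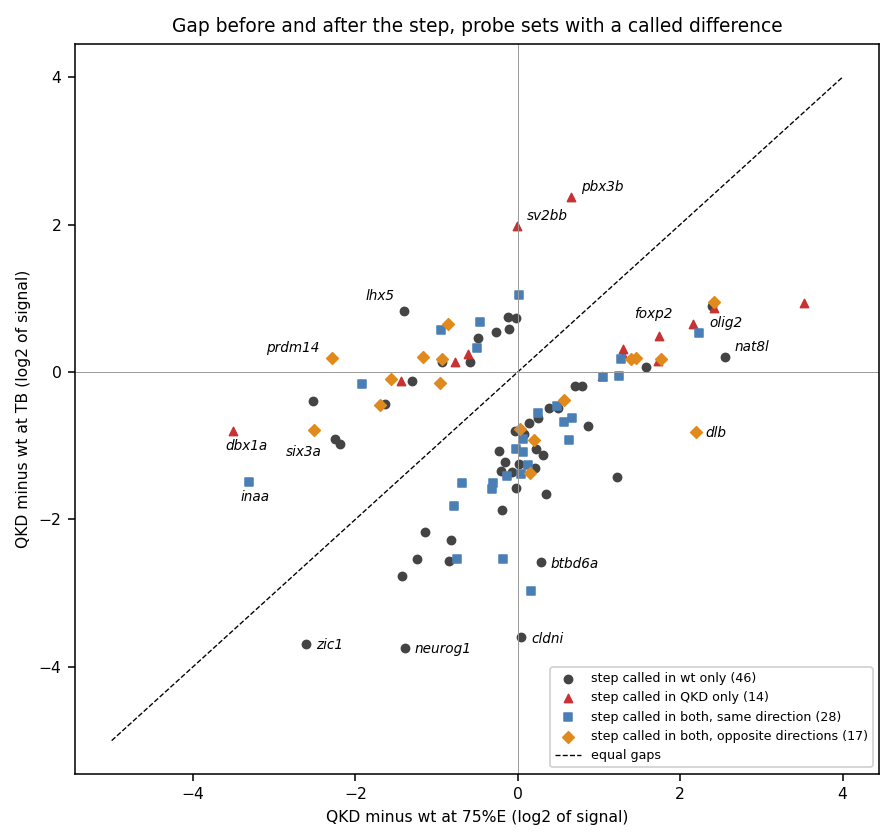
The 105 probe sets with a called step difference, with QKD minus wt at 75%E on the x axis and at TB on the y axis, both in log2 of signal, marked by the genotype in which the step was called (46 wt only, 14 QKD only, 28 both in the same direction, 17 both in opposite directions). Points on the dashed line would have equal gaps at both stages, *neurog1* and *cldni* lie far below it, and *dbx1a*, *prdm14* and *inaa* lie far above it.

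Among the kept rises were the largest steps of QKD embryos. *hoxc6b*, a Hox gene of the trunk, had 12.6 and 13.1 at 75%E and 219 and 148 at TB in wt and 12 and 13.9 at 75%E and 229.7 and 243 at TB in QKD embryos. Its QKD step of 4.2 (SE 0.16, adjusted p = 9.46e-08) was the largest of a named gene, and the step difference was 0.39 (SE 0.23, adjusted p = 0.671). *hand2*, a bHLH gene of heart and fin precursors, had 31.5 and 32.6 at 75%E and 369.5 and 314 at TB in wt and 33.4 and 36.1 at 75%E and 376 and 412 at TB in QKD embryos, with steps of 3.41 and 3.5. The genotypes ran together, and the step difference was 0.093 (SE 0.15). *hoxb1a* and *pax2a*, genes of the hindbrain and of the midbrain-hindbrain boundary, rose by 2.78 and 2.77 in QKD and by 2.99 and 3.18 in wt embryos. *dmbx1a* of the midbrain, *olig3* of the dorsal neural tube, *tcf15* of the somites and *irx1a* of the neural plate rose by 2.89, 3.24, 2.65 and 2.29 in QKD embryos, beside wt steps of 2.54, 3.73, 2.46 and 2.2. The adjusted p of these 8 step differences was 0.34 or higher.

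Some steps were kept at a level below wt. *mdkb*, which encodes the growth factor midkine b of the neural tube, had 796 and 977 at 75%E and 2784 and 2607 at TB in wt and 81.8 and 59 at 75%E and 162 and 153 at TB in QKD embryos. QKD embryos were lower on every array at both stages and yet rose by 1.18 against 1.61 in wt embryos (step difference -0.43, SE 0.23, adjusted p = 0.627). *her3*, a repressor gene of the neural plate, had 651 and 411 at 75%E and 969 and 851 at TB in wt and 16.4 and 16.6 at 75%E and 31.6 and 29 at TB in QKD embryos. It too rose in both, by 0.81 and 0.88, at a QKD level close to the lower quartile. Its wt step lay under the size of 1 that defines a normal rise. A dimmer *her3* probe set had steps of -0.25 in wt and -0.0089 in QKD embryos, neither of them called. *rx3* of the eye field and *pax6b* of the eye and hindbrain rose by 1.89 and 1.59 in QKD and by 2.55 and 1.64 in wt embryos, from lower QKD levels. *hoxc8a* rose by 2.97 in QKD and 2.04 in wt embryos (step difference 0.92, SE 0.19, adjusted p = 0.0638, and adjusted p = 0.0194 with the replicate block), which narrowed its gap from -1.78 to -0.86. Its 2 other probe sets had step differences of -0.16 and -0.45, neither of them called.

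The kept falls included those of pluripotency factors. Of 18 pluripotency and maternal factor genes, 1 rose and 9 fell in the QKD step and 1 rose and 13 fell in the wt step. Of the 6 normal falls on this list 5 were kept and 1 was unresolved. *pou5f3*, the zebrafish Oct4-related gene whose protein partners with SoxB1 factors, had 6019 and 6008 at 75%E and 1271 and 1894 at TB in wt and 6033 and 5548 at 75%E and 1560.0 and 1769 at TB in QKD embryos. The genotypes overlapped at both stages, with falls of 1.95 and 1.8 and a step difference of 0.15 (SE 0.22, adjusted p = 0.916). *nanog* and *sox32*, of the blastula and of early endoderm, fell by 1.5 and 1.93 in QKD and by 1.63 and 2.24 in wt embryos. *cat*, which encodes catalase, had 279.8 and 265 at 75%E and 40.4 and 45.5 at TB in wt and 359.9 and 266 at 75%E and 54.2 and 57.3 at TB in QKD embryos and fell by 2.67 and 2.47. *gyg1a* (glycogenin), *stard14* (a lipid-transfer protein) and *padi2* (a peptidylarginine deiminase) fell by 2.38, 2.49 and 2.07 in QKD embryos, beside 2.87, 2.34 and 2.28 in wt embryos. A dimmer *gyg1a* probe set had steps of -0.29 in QKD and -0.14 in wt embryos, neither of them called. *tdgf1*, which encodes the Nodal co-receptor Oep, fell by 0.85 in QKD embryos from 241 and 260.4 at 75%E, a level that was already below that of wt embryos at TB (479 and 637).

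Genes were also grouped into lists by role, with 1 probe set per gene, the brightest. Over all 8793 genes the QKD step was called higher for 1219 (13.9%) and lower for 1005 (11.4%), the step difference was called higher for 28 (0.318%) and lower for 40 (0.455%), and the median step difference was 0.037. At limma's unadjusted p under 0.05 the step difference was higher for 509 genes and lower for 384, and with the replicate block 135 and 141 were called. Of the 41 Hox and posterior genes 27 rose and 2 fell in the QKD step, as in the wt step 27 rose and 4 fell. At the probe sets counted here none had a called step difference (by limma's unadjusted p under 0.05 there were 5 higher and 7 lower, and 2 higher and 4 lower were called with the replicate block), the median step difference was 0.056, and 17 of the 18 normal rises on the list were kept. A *hoxa9a* probe set that is not in these counts had a called step difference of -2.36 (limma, adjusted p = 0.0034). Its steps were 3.48 in wt and 1.13 in QKD embryos. At TB 9 of the 41 genes were called lower in QKD embryos and 1 higher, beside 299 and 317 of all 8793 genes. Of the 45 paraxial mesoderm and somite clock genes 15 rose and 3 fell in the QKD step, and 1, *fgf8a*, had a called step difference (median 0.13). All 7 normal rises and 3 normal falls among the 29 endoderm and yolk syncytial layer genes were kept, as were the 4 normal falls of the 17 Nodal genes. The yolk gene *apoa2*, which encodes an apolipoprotein, rose by 1.91 in QKD and 2.43 in wt embryos. Among genes of the whole cell, the 73 cytosolic ribosomal protein genes had a median step of 0.35 in QKD and 0.33 in wt embryos (50 and 41 called higher, none lower), and of 87 respiratory chain genes 39 and 26 rose (medians 0.35 and 0.23), none of either list with a called step difference (in limma's unadjusted p under 0.05, 1 was lower on the first list and 3 were higher on the second).

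The forebrain, midbrain and hindbrain, neuronal repressor and proneural lists had 3 to 6 called step differences each, and no other list had more than 2. Of 35 forebrain and eye field genes, 10 rose and 2 fell in the QKD step and 15 rose and 6 fell in the wt step. The step difference was called lower for *barhl2*, *emx3*, *zic1* and *zic4* and higher for *lhx5* and *six3a*, 6 of 35 genes (13 with the replicate block, 6 higher and 7 lower), with a median over the list of 0.063. Of the 5 normal falls on this list 1 was kept, 2 failed and 2 were unresolved. Of the 10 normal rises 7 were kept, 2 failed and 1 was unresolved. Over all genes 203 of 251 normal falls and 252 of 312 normal rises were kept. Of the 20 neuronal repressor and Notch genes 4 rose and 4 fell in the QKD step, against 8 and 2 in the wt step. Here *dla*, *dlb* and *her6* had lower step differences, and the median was -0.26. Of the 35 proneural and neuronal genes 5 rose and 7 fell in QKD embryos, where 11 rose and 2 fell in wt embryos. *neurog1*, *olig2* and *myt1a* had lower step differences and *inaa* a higher one (median -0.17), and with the replicate block 6 were lower and 1 higher. *ascl1a*, a second proneural bHLH gene, had 34.7 and 37.4 at 75%E and 43.3 and 41.2 at TB in wt and 764 and 228 at 75%E and 155 and 99.6 at TB in QKD embryos. Its QKD fall of 1.75 (adjusted p = 0.0102) rested on 2 QKD arrays at 75%E that were far apart, and the step difference of -1.98 (SE 0.58) was not called (adjusted p = 0.209). The 33 midbrain and hindbrain genes kept 10 of 13 normal rises, with *gbx2* reduced and 2 unresolved. These lists were written with earlier results of these data known, and their shares describe the genes listed.

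**Figure D4:**
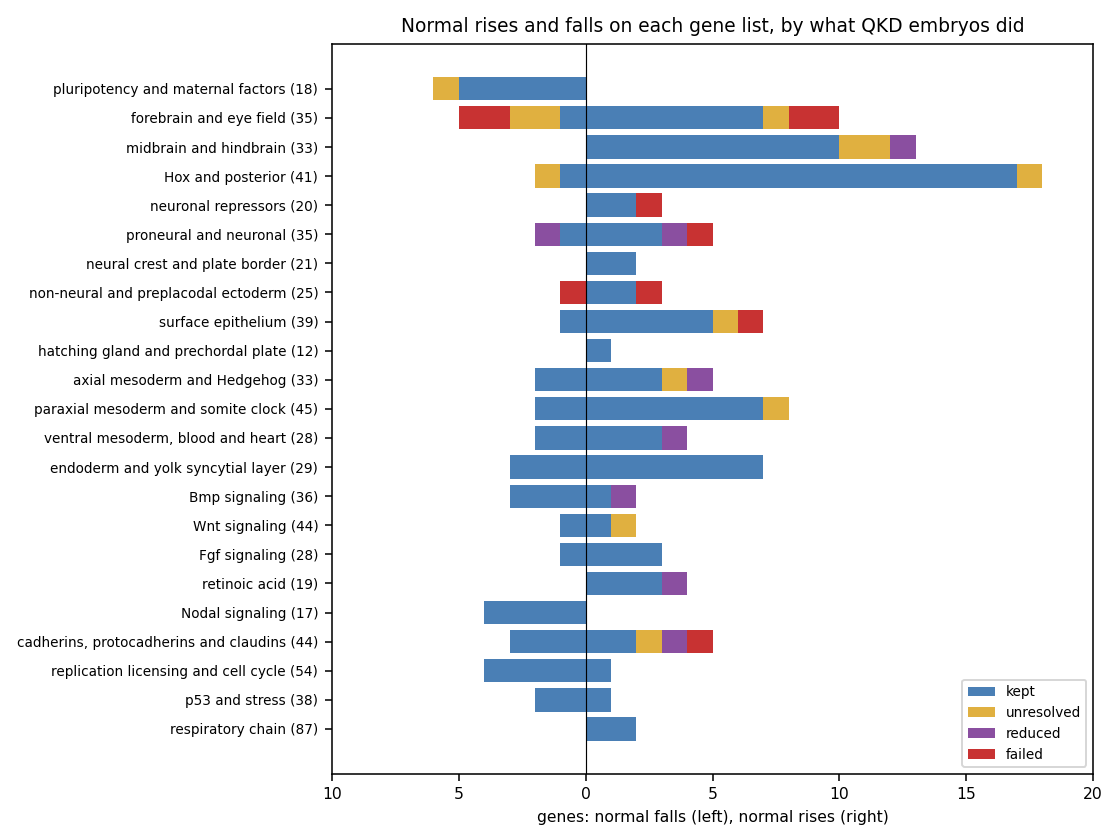
Number of genes on each list that were normal rises (bars to the right) and normal falls (bars to the left), coloured by class in QKD embryos, with the number of genes measured in parentheses. Kept genes make up most bars, and failed genes stand on the forebrain, neuronal repressor, proneural, non-neural ectoderm, surface epithelium and cadherin lists.

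Of 36 Bmp signaling genes 4 rose and 8 fell in the QKD step, against 4 and 13 in the wt step. Of 25 non-neural and preplacodal genes 5 rose and 2 fell in QKD embryos, with called step differences for *tp63* and *klf2b* alone. *dlx3b*, a homeobox gene of the preplacodal ectoderm, had 648 and 645 at 75%E and 915 and 841 at TB in wt and 90.04 and 132 at 75%E and 299 and 233 at TB in QKD embryos. It rose by 1.28 in QKD embryos and remained below wt on every array (step difference 0.84, SE 0.26, adjusted p = 0.231, and adjusted p = 0.045 with the replicate block). *szl*, which encodes the Bmp feedback inhibitor sizzled, had 650.5 and 714 at 75%E and 707 and 638 at TB in wt and 80.03 and 148 at 75%E and 316 and 222 at TB in QKD embryos. It rose by 1.29 in QKD embryos and remained below wt on every array as well (step difference 1.31, SE 0.38, adjusted p = 0.214, and adjusted p = 0.046 with the block). *chrd*, which encodes the Bmp antagonist chordin, fell by 1.75 in QKD embryos and by 0.72 in wt embryos. Its signal was 1023 and 1207 at 75%E and 653 and 697 at TB in wt and 683 and 607 at 75%E and 171 and 215 at TB in QKD embryos, so that the gap widened (step difference -1.03, SE 0.20, adjusted p = 0.0416). *foxi1*, a forkhead gene of the preplacodal ectoderm, and *tbxta*, the Brachyury gene of the notochord and margin, fell by 1.11 and 0.80 in QKD and by 0.83 and 0.58 in wt embryos. *cyp26a1*, which encodes a retinoic acid degrading enzyme, had steps of -0.38 in wt and 0.40 in QKD embryos, neither of them called (step difference 0.78, SE 0.28, adjusted p = 0.331, and 0.0476 with the block). The ligand genes *bmp2b*, *bmp4* and *bmp7a* had step differences of 0.079, 0.13 and -0.063, none of them called. Of the 39 surface epithelium genes 5 rose and 11 fell in the QKD step and 8 rose and 7 fell in the wt step. *cldni* had the 1 called step difference. At limma's unadjusted p under 0.05 there were 1 higher and 7 lower, against 509 and 384 of all 8793 genes. With the replicate block 0 higher and 2 lower were called, against 135 and 141. The keratin genes *krt4*, *krt5* and *krt8* had QKD steps of 0.18, 0.20 and -0.045.

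With no more than 2 arrays in a group, single arrays weigh heavily. Of the 105 called step differences, 34 were called whichever of the 12 arrays was left out, among them those of *neurog1*, *btbd6a*, *lmo3*, *sox21a*, *dla*, *lhx5*, *prdm14*, *six3a*, *inaa*, *dbx1a*, *sv2bb*, *pbx3b* and *foxp2*. That of *nat8l* was lost without wt TB replicate 1 (adjusted p = 0.0511), and that of *pou3f1* without this array or QKD 75%E replicate 2 (up to 0.0677). Those of *olig2* (up to 0.0923), *fsta* (0.0936), *crabp2a* (0.0832) and *zic1* (0.0672) were each lost without wt TB replicate 1, QKD 75%E replicate 2 or QKD TB replicate 2. *crabp2a* was lost without wt or QKD 75%E replicate 1 as well, *fsta* without QKD 75%E replicate 1 and *zic1* without wt TB replicate 2. The call of *dlb* was lost without wt 75%E replicate 1, wt TB replicate 1 or QKD TB replicate 2 (up to 0.0847), and that of *cldni* without any of the 4 QKD arrays (up to 0.0636). *klf2b* (up to 0.0832) and *gbx2* (up to 0.115) were lost without any of 5 and 6 arrays, wt TB replicate 1 and both QKD TB arrays among them, *tp63* without any of 9 (up to 0.168), and *nr2f5* and *chrd* without any of 10 (up to 0.175 and 0.158).

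The calls of *spata13*, *tagln3b*, *nap1l4a*, *nkx2.9* and *lad1* also held without any 1 array. *cdh11* and *nkx2.7* were lost without wt TB replicate 1 or either QKD 75%E array (up to 0.0823 and 0.0832), and *tmem47* without wt TB replicate 1, QKD 75%E replicate 2 or QKD TB replicate 1 (up to 0.0616). *arhgap29a* (up to 0.0894) and *zic4* (up to 0.0729) were lost without any of 4 arrays, and *tmem108* without any of 5 (up to 0.0957). *acsf2*, *barhl2*, *fgf8a* and *her6* were lost without any of 6 arrays (up to 0.132, 0.113, 0.123 and 0.102), each time with wt TB replicate 1 and both QKD 75%E arrays among them. *gli2a* was lost without any of 7 (up to 0.14), *junba* and *pou2f1b* without any of the 8 arrays of both stages, *septin9a* without any of 10 (up to 0.131), *myt1a* without any of 11 and *emx3* without any of the 12 (both up to 0.17). Of the QKD steps, those of *dla* (up to 0.0893) and *dlb* (up to 0.212) were lost without QKD 75%E replicate 1 or either QKD TB array, *olig2* (up to 0.0595) and *szl* (up to 0.0664) without QKD 75%E replicate 1 or QKD TB replicate 1, *inaa* without QKD TB replicate 1 (0.0543), *ascl1a* without QKD TB replicate 2 (0.0802), *nanog* without QKD 75%E replicate 2 (0.0503) and *myt1a* without any of 8 arrays (up to 0.149). The QKD step of *neurog1* was called without QKD TB replicate 2 (0.0263). Failed and reduced rises together numbered 18 without wt TB replicate 1, 70 without wt TB replicate 2, 26 without either QKD 75%E array and 25 without QKD TB replicate 2. Failed and reduced falls numbered 9 without wt TB replicate 1 or QKD 75%E replicate 2.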

How the data were processed

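Each of the 12 arrays was an Affymetrix Zebrafish Genome array with 15617 probe sets. The authors deposited intensity values summarised with RMA, on a linear scale, and its version is not given in the sources used here. The 115 control probe sets were left out, log2 was taken and 15502 probe sets were tested. By the platform annotation 10795 of them carry 1 gene symbol (8793 symbols), 135 several and 4572 none. A mean for each of 6 groups was fitted with limma 3.58.1 in R 4.3.3 (6 residual and 5.11 prior degrees of freedom), and p-values were adjusted by Benjamini-Hochberg over all probe sets, called under 0.05. Tables and plots were made with Python 3.11.15, numpy 2.4.6, pandas 2.3.3 and matplotlib 3.10.9. The arrays were judged by their number alone, since arrays carry no read depth. The p-values rest on the spread between the 2 samples of a group, pooled over all 6 groups and moderated across probe sets. The fit without a block treats all samples as independent, although same-numbered wt and QKD samples deviated together. The authors' sample columns were all assigned, and 0 columns were left over.

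Named genes were the 10 largest increases and 10 largest decreases of the QKD step and of the step difference among called, non-overlapping probe sets with 1 symbol, the 5 largest wt steps of each class, the genes the study measured in embryos, and 2 to 4 examples per list, by the brightest probe set of a gene. Not every gene given by this rule is described above. Those left out include *bmp3* (QKD step 3.01) and *arl3l1* (QKD step -2.64). *ascl1a*, *dla*, *zic4*, *emx3*, *fgf8a* and other genes are named as members of lists or because their step difference was called, after their values were seen. The 27 lists were written from general knowledge and the text of the study. The samples, members and lists were chosen with earlier results of these data known.

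Same-numbered wt and QKD samples deviated together within a stage (r = 0.615 at 30% epiboly, 0.443 at 75%E and 0.488 at TB) and not across stages (-0.0835 to 0.183), so the label numbers were taken to pair samples within a stage. The pairing rests on the labels' numbers and these correlations, and the consensus correlation of the block was 0.401. On simulated data with independent noise, the fit called 97 of 100 QKD steps of 1 and 100 of 100 of 2 in log2, with 18 of 15102 unchanged probe sets called. It called 81 of 100 step differences of 1 and 100 of 100 of 2, 0 of 100 probe sets changed alike in both genotypes and 19 of 15102 unchanged ones. Alternatives left out each array or dim probe sets, used the 8 arrays alone, a trend, no moderation, other normalisations, a replicate block, a plain Student's t-test on linear signals, other thresholds and 1 probe set per gene. The choice of rises and falls on the QKD step and the description of gaps were added after seeing the data.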

Additional observations from a re-analysis of the deposited data

Results flagged for a closer look

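The results below drew attention because the 2 genotypes differed in the same step, by the step difference of the limma fit over all 12 arrays. They number 33 probe sets called higher and 72 called lower, of which the genes singled out by the naming rule follow with their step difference in log2 of signal. *cldni* (-3.64), *dlb* (-3.0), *btbd6a* (-2.87), *neurog1* (-2.35), *nat8l* (-2.34), *lmo3* (-1.72), *spata13* (-1.59) and *zic1* (-1.08) had failed rises. *nr2f5* (-1.79), *olig2* (-1.7), *gbx2* (-1.55), *cdh11* (-1.42), *fsta* (-1.3) and *crabp2a* (-1.2) had reduced rises. *prdm14* (2.48), *lhx5* (2.22), *gpd1b* (1.72), *klf2b* (1.34) and *cnppd1* (1.07) had failed falls, and *inaa* (1.82), *eml2* (1.75), *acsf2* (1.14) and *nherf1a* (0.83) had reduced falls. *gpd1b*, which encodes a glycerol-3-phosphate dehydrogenase, rose by 0.62 in QKD embryos where wt embryos fell by 1.1. *dbx1a* (2.71), *sv2bb* (1.99) and *pbx3b* (1.72) rose in QKD embryos alone and *pou3f1* (-1.58) fell in them alone, and *chrd* (-1.03) fell in both. 2 genes without a described role here, *si:dkey-27i16.2* (2.13) and *si:dkeyp-114g9.1* (1.51), differed as well. With 2 arrays in a group, no test for a single outlying array was made.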

How the results depend on the processing

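The results are limited by 2 arrays per group and by the choice of normal changes on the wt step. Dim signals under the lower quartile and the delay of QKD embryos limit them too. No called QKD step or step difference of a named gene changed its sign under any alternative run. Uncalled ones near 0, such as the step differences of *bmp4*, *bmp7a* and *cat*, did. Many of these runs could not change a sign, since they leave the size of a step as it is. Among them are the trend, the filter of dim probe sets, the replicate blocks and the fits to the arrays of the step alone. Leaving out an array from outside the step is another. Only other normalisations and leaving out an array of the step could test the sign. Leaving out 1 array at a time gave 1009 to 2046 higher and 906 to 1833 lower QKD steps, 1320 to 2138 higher and 1252 to 2055 lower wt steps, and 13 to 41 higher and 27 to 88 lower step differences. It gave 343 to 482 kept and 18 to 70 failed or reduced rises, 251 to 362 kept and 9 to 22 failed or reduced falls, and slopes of 0.66 to 0.76.

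With the replicate block within stage the pairing gave 180 higher and 263 lower step differences, 135 failed or reduced rises and 64 such falls. As a random block it gave 239 and 307, with 141 rises and 58 falls. It moved no other count beyond 1.5 times. With only the 8 arrays the step difference was called for 13 higher and 29 lower, with 19 failed or reduced rises and 8 falls. Without moderation on these 8 arrays the QKD step gave 740 and 570, the wt step 1070 and 967 and the step difference 0 and 0, with 211 and 155 kept rises and falls and 0 and 0 failed or reduced ones. Without probe sets under the 40th percentile 27 step differences were lower, 265 rises were kept and 15 failed or were reduced. At adjusted p under 0.01 the QKD step gave 1062 and 795, the wt step 1401 and 1245, the step difference 12 and 24, and failed or reduced rises and falls 18 and 8. A size of at least 1 gave 361 and 265 QKD steps, 535 and 359 wt steps and 266 and 182 kept rises and falls. The study used ratios of mean signals over 2 to compare QKD with control embryos of the same stage. Moved here to the steps, this rule gave 372 and 272 QKD steps and 528 and 369 wt steps. It gave 256 and 189 kept and 73 and 24 failed or reduced rises and falls.

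A plain Student's t-test on linear signals gave, after Benjamini-Hochberg, 11 and 5 QKD steps and 0 and 1 wt steps. With 1 probe set per gene and p adjusted over these genes alone, in place of all probe sets, the wt step gave 1402 and 1396, 43 step differences were lower, 254 rises were kept and 28 failed or were reduced. With normal changes of at least 0.5, 1058 rises and 920 falls were kept and 25 falls failed or were reduced. With at least 2, 80 and 37 were kept and 16 and 6 failed or were reduced. The cause of these shifts was not tested. Named genes were also compared over the alternatives other than leaving out an array. The step difference stayed called or stayed uncalled in 877 cases, while 44 calls were gained and 50 lost. For the QKD step these numbers were 811, 23 and 26. The unaltered cases include genes that were never called, so they do not measure how firm the calls were.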

Other observations

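Lists that belong to no comparison above are given here as values. Of 54 replication licensing and cell cycle genes, 12 rose and 14 fell in the QKD step, where 9 rose and 23 fell in the wt step. The median step difference was 0.20 beside 0.037 over all 8793 genes, and none was called (at an unadjusted p under 0.05, limma gave 11 higher and 0 lower against 509 and 384 over all genes, and with the replicate block 2 higher were called against 135 and 141). At 75%E 10 of the 54 were called lower in QKD embryos and 2 higher, and at TB 0 lower and 2 higher. Over all 8793 genes there were 406 lower and 414 higher at 75%E and 299 lower and 317 higher at TB. The 44 cadherin, protocadherin and claudin genes had 4 rises and 14 falls in the QKD step and 9 rises and 10 falls in the wt step. Their median step difference was -0.12, with *cdh11* and *cldni* called lower. At an unadjusted p under 0.05, limma gave 1 higher and 10 lower, against 509 and 384 over all genes. With the replicate block 0 higher and 5 lower were called, against 135 and 141.

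Of 44 Wnt signaling genes 6 rose and 11 fell in the QKD step, against 7 and 14 in the wt step, and none had a called step difference (at an unadjusted p under 0.05, limma gave 5 higher and 1 lower, to be read against the same 509 and 384). Of 38 p53 and stress genes 4 rose and 7 fell in either step, with *junba* the 1 called step difference. At TB 8 of them were called higher in QKD embryos and at 75%E 4, beside 317 and 414 of all 8793 genes. Of 74 splicing factor genes 5 rose and 15 fell in QKD embryos and 6 rose and 21 fell in wt embryos, with a median step difference of -0.0088. In the Nodal list the receptor gene *acvr1ba* had a called step difference of 0.82 (SE 0.13, adjusted p = 0.0186), with signals of 410.3 and 383 at 75%E and 223 and 206 at TB in wt and 319 and 339 at 75%E and 307 and 319 at TB in QKD embryos. Its wt fall of 0.89 had no called QKD step beside it (-0.073, adjusted p = 0.668).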
